A study of Homo sapiens with 12 samples.

Results

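Glycolysis splits glucose into pyruvate in the cytosol, and the genes described here carry that route, its exits to lactate and the gate into mitochondria. They are 33 genes chosen by their GENCODE release 29 names: glucose transporters, the isoenzymes from hexokinase to pyruvate kinase, the enzymes that set fructose 2,6-bisphosphate, lactate dehydrogenases, monocarboxylate transporters, 2 subunits of pyruvate dehydrogenase and the kinases that switch that enzyme off. All 33 were among the 58051 genes of the table, and 32 of them were among the 17774 genes with enough counts to be tested. PDK4, a pyruvate dehydrogenase kinase that fasting is known to raise, was at 0 counts in all 12 libraries, which allows up to 3 counts per library, or 0.0377 to 0.17 CPM, the unit used below: counts scaled to a common library total.

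The study used NB-1, an established human neuroblastoma cell line known for amplified MYCN and ALK, so every value comes from 1 line. Cells were kept for 48 h with DMSO, the solvent control, with 0.5 µM BEZ-235 (dactolisib, an inhibitor of the kinases PI3K and mTOR), with 0.5 µM SAHA (vorinostat, an inhibitor of histone deacetylases), or with both drugs at these doses. There were 3 biological replicates in each of these 4 groups, and stranded libraries were made from polyadenylated RNA. The study's title names the ALK target HBP1 and the combined inhibition of PI3K and histone deacetylases.

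Library totals ran from 17662944 to 79543539 counts (median 20407980), and the 33 genes took 0.878 to 1.032% of them. All 16 adrenergic neuroblastoma markers looked at were detected and tested. Among Schwann cell markers SOX10, PMP2 and CDH19 were at 0 in every library, and the 8 together summed to 2.18 to 3.97 CPM with DMSO, 1.03 to 1.61 with BEZ-235, 7.86 to 9.46 with SAHA and 6.97 to 8.66 with both drugs. The 10 fibroblast markers moved with treatment too: they summed to 106 to 116 CPM with DMSO, 37.0 to 41.7 with BEZ-235, 420 to 471 with SAHA and 174 to 196 with both drugs, while FAP was at 0. LUM led this sum with DMSO, SAHA and both drugs, and THY1 led it with BEZ-235. The part of these markers in the results below was not tested. In bulk RNA, fewer cells of a type and less RNA per cell cannot be told apart.

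Transcript base composition moved with treatment as well. For both drugs against DMSO the median log2 fold change of all genes ran, over 5 equal groups of genes by GC content, from -0.45 in the lowest group (26.5 to 41.1%) to 0.45 in the highest (57.8 to 75.3%), while BEZ-235 alone ran from 0.05 to -0.13 and SAHA alone from 0.03 to -0.20. The 33 genes had a median GC content of 52.8%, against 48.5% for all genes tested. A fit corrected for GC content and length was therefore run beside the main one, and its value is given beside a called change where it ended the call, turned the direction or moved the value by over 1.5 times, and beside an uncalled one where it brought a call. Because the trend goes with treatment, a library artefact and a drug effect that varies with GC content cannot be told apart. The corrected values are therefore not taken as the truer ones.

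Glucose enters through the transporters SLC2A1 and SLC2A3 and is trapped as glucose 6-phosphate by hexokinases. Phosphofructokinase makes the committed step, and the bifunctional PFKFB enzymes tune it by making or removing its activator fructose 2,6-bisphosphate. Lactate dehydrogenase turns pyruvate into lactate, which the monocarboxylate transporters carry across the membrane, whereas pyruvate dehydrogenase sends it into the citrate cycle unless a PDK phosphorylates it. Neuroblastoma cells, like many tumour cells, are known for making lactate in the presence of oxygen, and MYC family factors, hypoxia-inducible factors and mTOR are all known to raise glycolytic genes.

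MYC family and hypoxia-inducible factors bind known letters near start sites. The RefSeq windows from 250 bases before to 50 bases after each annotated start (build GRCh38.p14) were therefore searched on both strands. The motifs were the E-box CACGTG, bound by MYC and its relatives, the hypoxia core ACGTG, which every CACGTG contains, the forkhead motif GTAAACA and the GC box GGGCGG. Windows were found for 30 of the 33 genes, 61 windows in all, and none for SLC2A3, PFKFB2 and SLC16A1. CACGTG was in a window of 8 of the 30 genes, or 26.7%, against 8.77% of all genes with windows: HK2, PFKFB3, ALDOA, ALDOC, GAPDH, LDHA, PDK2 and PDHB. ACGTG was in 63.3% of the 30 against 24.9% of all, GGGCGG in 93.3% against 48.3%, and GTAAACA in PGM1 alone, 3.33% against 4.19%. The 30 genes had 61 windows, where all 27305 genes had 35116. Counted by window, CACGTG was in 13.1% of theirs against 7.26% of all, ACGTG in 37.7% against 21.4%, GGGCGG in 67.2% against 45% and GTAAACA in 1.64% against 3.42%. A match describes letters and is neither a binding site nor a cause.

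The windows of 5 genes on which the results turn are printed 5′ to 3′ along each gene's strand, to set the lactate dehydrogenase pair side by side and to show a hexokinase, a phosphoglycerate kinase and pyruvate kinase with it. Capitals mark CACGTG and ACGTG, the latter also as CACGT, its letters on the other strand. LDHA is shown by the first of 2 windows and HK2 by the second of 2, the ones that hold CACGTG.
LDHA (chr11:18394313-18394612, plus strand): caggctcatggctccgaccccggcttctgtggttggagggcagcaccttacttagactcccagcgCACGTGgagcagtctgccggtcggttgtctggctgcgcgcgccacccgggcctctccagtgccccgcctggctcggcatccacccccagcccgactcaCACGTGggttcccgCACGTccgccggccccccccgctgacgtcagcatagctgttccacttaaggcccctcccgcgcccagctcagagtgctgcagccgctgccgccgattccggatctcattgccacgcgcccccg
LDHB (chr12:21657793-21658092, minus strand): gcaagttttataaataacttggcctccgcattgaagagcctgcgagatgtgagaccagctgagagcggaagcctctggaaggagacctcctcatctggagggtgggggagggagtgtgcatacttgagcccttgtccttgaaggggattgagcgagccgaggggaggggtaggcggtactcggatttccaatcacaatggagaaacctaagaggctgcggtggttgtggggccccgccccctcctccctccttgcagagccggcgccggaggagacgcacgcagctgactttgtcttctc
HK2 (chr2:74834920-74835219, plus strand): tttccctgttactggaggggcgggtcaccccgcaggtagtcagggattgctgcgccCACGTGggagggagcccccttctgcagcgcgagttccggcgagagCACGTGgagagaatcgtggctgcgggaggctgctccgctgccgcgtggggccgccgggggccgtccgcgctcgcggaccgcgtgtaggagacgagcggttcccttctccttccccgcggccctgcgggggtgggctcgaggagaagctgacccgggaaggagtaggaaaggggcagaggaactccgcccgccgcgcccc
PGK1 (chrX:78103998-78104297, plus strand): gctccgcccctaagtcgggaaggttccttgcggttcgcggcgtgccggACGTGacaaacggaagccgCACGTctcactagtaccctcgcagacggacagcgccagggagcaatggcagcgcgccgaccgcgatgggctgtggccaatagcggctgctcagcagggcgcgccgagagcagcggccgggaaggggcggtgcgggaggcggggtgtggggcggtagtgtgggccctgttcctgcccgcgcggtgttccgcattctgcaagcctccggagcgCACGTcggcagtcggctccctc
PKM (chr15:72231141-72231440, minus strand): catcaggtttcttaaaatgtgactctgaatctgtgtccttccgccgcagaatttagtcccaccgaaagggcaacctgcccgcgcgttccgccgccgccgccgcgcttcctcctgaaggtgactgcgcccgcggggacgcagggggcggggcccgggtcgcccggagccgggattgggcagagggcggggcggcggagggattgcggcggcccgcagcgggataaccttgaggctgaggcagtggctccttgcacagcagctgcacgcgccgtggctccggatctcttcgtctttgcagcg

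LDHA and HK2 each hold CACGTG at 2 places, and PGK1 holds only the shorter core, at 3. No match of either was in the LDHB or PKM window, which says only that these letters are not there.

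In DMSO the levels of the 32 tested genes per kilobase of annotated exon spanned from 798 CPM per kb for GAPDH down to 0.199 for the lactate exporter SLC16A3. LDHB followed GAPDH at 306 CPM per kb, then TPI1 at 208, PGAM1 at 136, ENO1 at 120, PKM at 119 and LDHA at 114. The regulators were far lower: PFKFB3 was at 11.0 CPM per kb, PFKFB4 at 3.10, PDK2 at 2.79, PDK1 at 1.98 and PDK3 at 0.941. Among the genes named in this order, the replicates of PGAM1, ENO1, PKM and LDHA overlapped, and so did those of PFKFB4 and PDK2. The order depends on the annotated exon length, as do the sizes of the isoenzyme shares below. Without that division, PKM was at 1017 CPM with DMSO, LDHB at 913, LDHA at 709, TPI1 at 562 and PGAM1 at 348.

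BEZ-235 lowered most of these genes. Of the 32 tested, 17 were called lower and 6 higher against DMSO at a Benjamini-Hochberg adjusted p under 0.05 in edgeR's quasi-likelihood test (23 called, 71.9%, where 50.9% of all genes tested were called). The share called lower was 53.1%, against 25.4% of all genes, and the share called higher 18.8%, against 25.5%. The median log2 fold change of the 32 was -0.37, beside 0.02 for all genes tested. Values given with ± below are log2 fold changes with their SE, 3 libraries per group.

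SAHA gave no common direction, with 9 genes called higher and 8 lower (17 called, 53.1%, against 43.1% of all genes, 22.2% higher and 20.9% lower) and a median of 0.04, beside -0.01 for all genes. With both drugs 14 were higher and 13 lower (27 called, 84.4%, against 64.4% of all genes, 33.2% higher and 31.2% lower) at a median of 0.01, beside 0.03. The 3 comparisons share the DMSO libraries, so their values are set side by side and not counted as repeats of each other.

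With the GC correction, 6 genes were called higher and 19 lower with BEZ-235, where 56% of all genes were called, 28.3% higher and 27.7% lower. With SAHA 8 were higher and 10 lower, against 49.8% of all genes, 23.9% higher and 25.9% lower. With both drugs 12 were higher and 14 lower, against 65.5% of all genes, 34.6% higher and 30.9% lower.

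**Figure D1:**
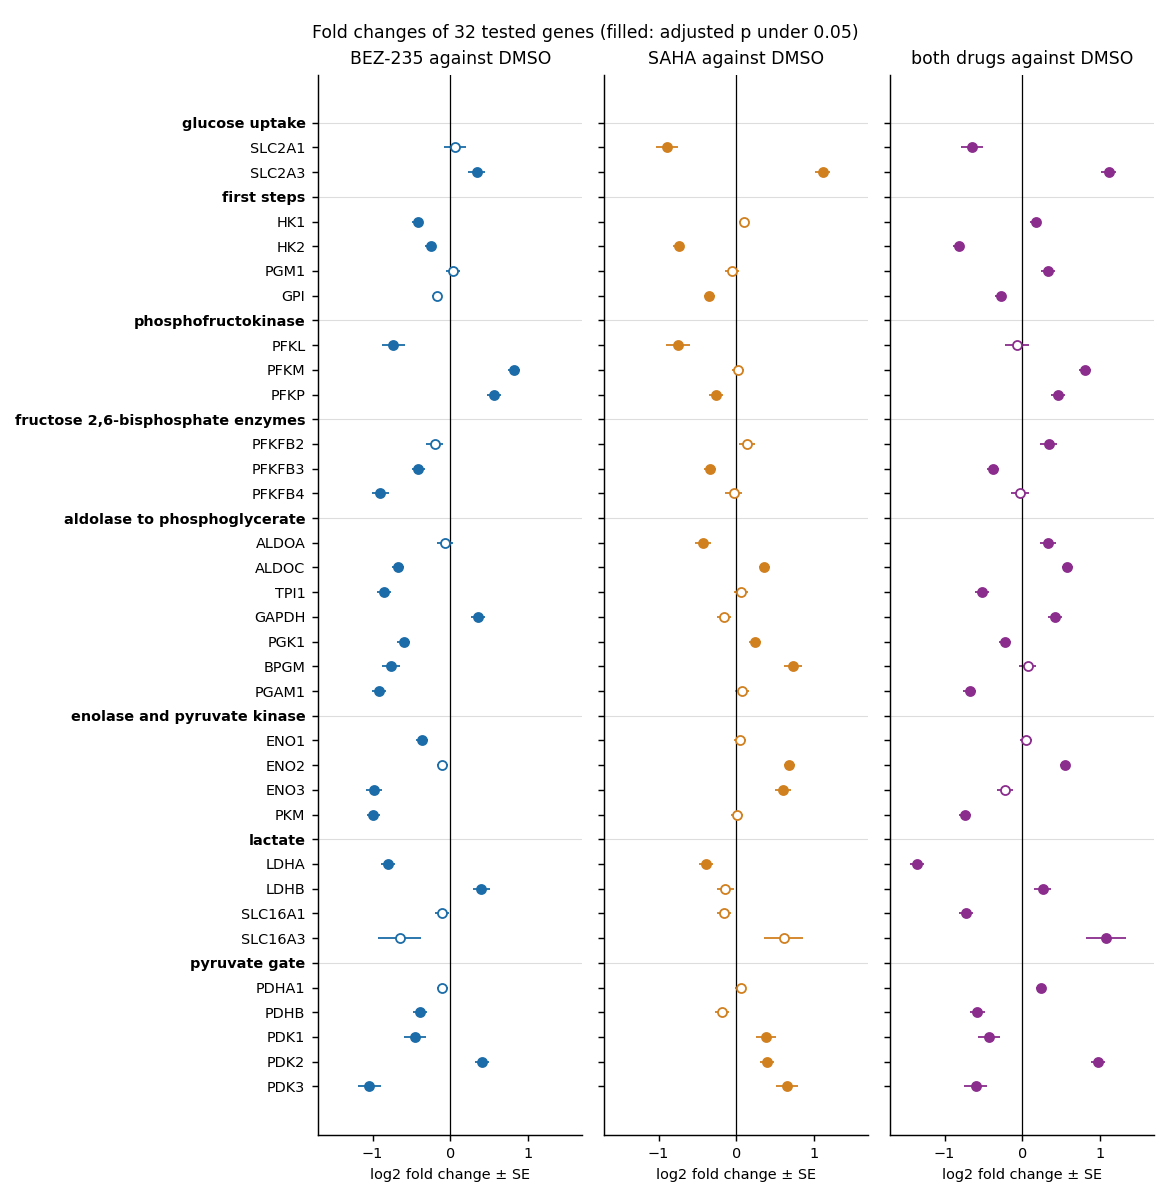
Log2 fold change ± SE against DMSO (horizontal axis) of the 32 tested genes, grouped by role, for BEZ-235, SAHA and both drugs; filled points passed adjusted p under 0.05. With BEZ-235, 17 filled points lie below 0 and 6 above, and with both drugs LDHA is lowest at -1.36 and SLC2A3 highest at 1.11.

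The glucose transporters moved apart. SLC2A1, the basal glucose carrier of most cells (chr1:42925375-42959176), was at 6.63, 8.0 and 7.47 CPM with DMSO, 8.68, 7.70 and 6.67 with BEZ-235, 4.01, 3.82 and 4.15 with SAHA and 4.78, 4.91 and 4.46 with both drugs. Every library with SAHA lay below every library without it, and the BEZ-235 and DMSO libraries overlapped. The change was -0.89 ± 0.14 with SAHA (edgeR adjusted p = 7.84e-05) and -0.65 ± 0.14 with both drugs (edgeR adjusted p = 0.000765), while BEZ-235 gave 0.06 with a 95% interval of -0.26 to 0.37.

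SLC2A3, the high-affinity carrier typical of neurons (chr12:7919230-7936275), was at 14.0, 14.3 and 14.8 CPM with DMSO, 17.5, 18.9 and 18.1 with BEZ-235, 34.0, 30.1 and 29.2 with SAHA and 35.6, 28.6 and 28.5 with both drugs. All treated libraries lay above DMSO, and those with SAHA lay above those without. It rose by 1.11 ± 0.10 with SAHA, or 2.16-fold (edgeR adjusted p = 3.78e-07), by 1.11 ± 0.10 with both drugs and by 0.34 ± 0.11 with BEZ-235 (edgeR adjusted p = 0.0134). The BEZ-235 call was lost without BEZ-235 replicate 2 (0.29, edgeR adjusted p = 0.0629).

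Reads of SLC2A3 are uncertain, because its pseudogenes held 55.8 to 68.6% of the summed counts. SLC2A3P1 alone was at 24.2 to 29.8 CPM with DMSO and 39.2 to 56.5 with SAHA. With pseudogenes summed into the gene the rise was 0.91 with SAHA, 0.79 with both drugs and 0.24 with BEZ-235, which was no longer called (edgeR adjusted p = 0.107). For the other tested genes, pseudogene copies held at most 1.72%, the highest for TPI1.

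The shares of the glucose carriers leave out the pseudogene counts, so their size depends on how SLC2A3 reads were assigned. As a share of both carriers per kilobase, SLC2A3 went from 60.0% ± 2.05 (SD, n = 3) with DMSO to 85.6% ± 1.17 with SAHA and 83.3% ± 1.7 with both drugs. The exact permutation test of each against DMSO gave p = 0.1, the smallest 2-sided value that 3 libraries against 3 allow. Every other isoenzyme share given below did so too, apart from those named next. HK2 and SLC16A1 with BEZ-235 each gave exact permutation p = 0.2, and PDK2 with SAHA gave exact permutation p = 0.6.

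Of the 4 enzymes that make and interconvert hexose phosphates, the hexokinases differed. HK2, the inducible hexokinase of tumours (chr2:74833981-74893359), was at 133, 126 and 131 CPM with DMSO, 108, 112 and 109 with BEZ-235, 72.6, 79.7 and 81.0 with SAHA and 72.5, 72.7 and 76.0 with both drugs. All treated libraries lay below all DMSO libraries, and SAHA and both drugs overlapped. The change was -0.25 ± 0.07 with BEZ-235 (edgeR adjusted p = 0.00575), -0.74 ± 0.07 with SAHA (edgeR adjusted p = 3.14e-07) and -0.82 ± 0.07 with both drugs (edgeR adjusted p = 2.51e-08).

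HK1, the constitutive hexokinase of brain (chr10:69269984-69401884), was at 302, 295 and 280 CPM with DMSO, 230, 211 and 215 with BEZ-235, 318, 315 and 309 with SAHA and 328, 308 and 351 with both drugs. Only the BEZ-235 libraries lay below DMSO, by 0.42 on the log2 scale (-0.42 ± 0.07, edgeR adjusted p = 0.000163). The rise of 0.17 ± 0.07 with both drugs (edgeR adjusted p = 0.0488) was lost in each of the 12 fits without 1 library (0.11 to 0.19, edgeR adjusted p 0.0521 to 0.248) and fell to 0.02 with the GC correction (edgeR adjusted p = 0.736). HK2 made 31.6% ± 0.950 of hexokinase message per kilobase with DMSO, 34.2% ± 1.51 with BEZ-235, 20.5% ± 1.14 with SAHA and 18.9% ± 0.691 with both drugs (SD, n = 3).

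GPI, which turns glucose 6-phosphate into fructose 6-phosphate, fell by 0.35 with SAHA (-0.35 ± 0.07, edgeR adjusted p = 0.001) and by 0.28 with both drugs (-0.28 ± 0.07), or -0.44 with the GC correction. With BEZ-235 its change of -0.17 ± 0.07 did not pass (edgeR adjusted p = 0.0615), and it passed with the GC correction at the same size (edgeR adjusted p = 0.0318). PGM1, which links glycogen to glycolysis, was called only with both drugs, at 0.33 ± 0.09 (edgeR adjusted p = 0.00435). Its 3 libraries there, at 48.4, 39.2 and 44.9 CPM, lay above the DMSO range of 32.9 to 37.5. PGM1 lies across ITGB3BP on the other strand, which was at 25.4% of its level.

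Of the 3 phosphofructokinase subunits, PFKM and PFKP rose and PFKL fell with BEZ-235. PFKM, the muscle-type subunit (chr12:48105139-48146404), was at 279, 295 and 279 CPM with DMSO, 535, 477 and 497 with BEZ-235, 312, 284 and 270 with SAHA and 516, 471 and 506 with both drugs. The libraries with BEZ-235 all lay above those without it, whether or not SAHA was present. The rise was 0.82 ± 0.08, or 1.77-fold, with BEZ-235 (edgeR adjusted p = 2.65e-07) and 0.81 ± 0.08 with both drugs (edgeR adjusted p = 1.49e-07), whereas SAHA gave 0.02 with a 95% interval of -0.16 to 0.20.

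PFKP, the platelet-type subunit (chr10:3066333-3137712), followed with 224, 204 and 202 CPM with DMSO, 320, 312 and 304 with BEZ-235, 171, 183 and 171 with SAHA and 251, 298 and 319 with both drugs. It was higher in every BEZ-235 library and lower in every SAHA library than in any DMSO library. BEZ-235 gave 0.57 ± 0.09, both drugs 0.46 ± 0.09 (0.19 with the GC correction, edgeR adjusted p = 0.0226) and SAHA -0.26 ± 0.09. The last (edgeR adjusted p = 0.0204) did not pass when DMSO replicate 1, SAHA replicate 1 or SAHA replicate 3 was left out (-0.22, -0.24 and -0.25, edgeR adjusted p = 0.109, 0.0654 and 0.0607).

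PFKL, the liver-type subunit (chr21:44300051-44327376), was at 37.1, 37.4 and 30.0 CPM with DMSO, 23.1, 22.1 and 17.7 with BEZ-235, 19.0, 22.5 and 20.3 with SAHA and 25.5, 33.4 and 40.6 with both drugs. Each drug alone put all its libraries below DMSO, while the both-drug libraries spread across the DMSO range. The changes were -0.73 ± 0.15 with BEZ-235 (edgeR adjusted p = 0.00084), -0.75 ± 0.15 with SAHA (edgeR adjusted p = 0.000777) and -0.07 ± 0.15 with both drugs. PFKL had the highest GC content of the 33 genes, 64.1%, and with the GC correction the value for both drugs was -0.58 ± 0.09 (edgeR adjusted p = 1.94e-05). PFKL made 4.52% ± 0.418 of phosphofructokinase message per kilobase with DMSO, 1.73% ± 0.206 with BEZ-235, 2.96% ± 0.276 with SAHA and 2.81% ± 0.493 with both drugs (SD, n = 3). PFKM went from 45.1% ± 1.81 with DMSO to 50.7% ± 1.18, 50.6% ± 2.31 and 51.8% ± 3.9 (SD, n = 3), so the shares moved alike in direction with each treatment.

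**Figure D2:**
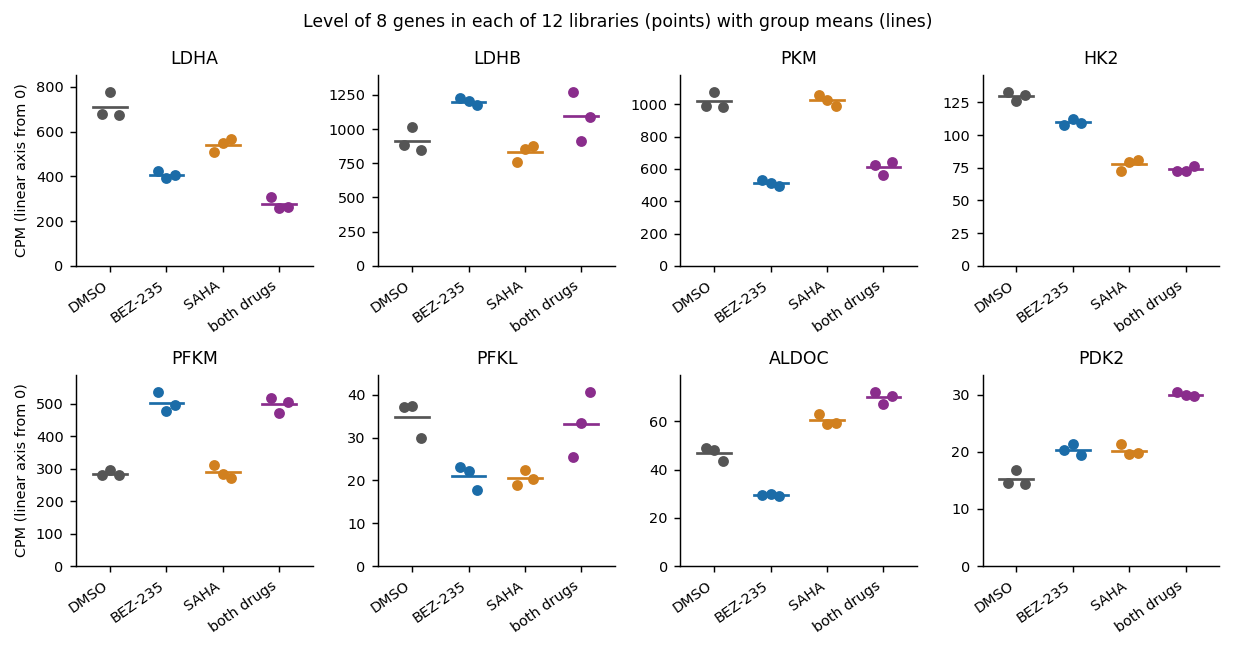
CPM (vertical axes, linear from 0) of 8 genes in each of the 12 libraries, by group; points are libraries and lines group means. LDHA falls from 673 to 777 with DMSO to 260 to 307 with both drugs, PFKM is raised wherever BEZ-235 is present, and ALDOC is lowered by BEZ-235 alone but highest with both drugs.

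The 3 PFKFB genes, whose products raise or lower fructose 2,6-bisphosphate, did not move alike. PFKFB4 (chr3:48517684-48562015) was at 20.7, 19.6 and 16.5 CPM with DMSO, 11.4, 8.93 and 10.0 with BEZ-235, 19.0, 18.5 and 18.2 with SAHA and 18.1, 19.3 and 18.4 with both drugs. Only the BEZ-235 libraries stood apart, all below every other library. The change was -0.90 ± 0.11 (edgeR adjusted p = 5.31e-06), against -0.03 in each of the other groups, where the GC correction gave -0.28 for both drugs (edgeR adjusted p = 0.0108).

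PFKFB3, the isoform with the strongest kinase activity, fell with every treatment, by 0.41 with BEZ-235 (-0.41 ± 0.08, edgeR adjusted p = 0.000319), by 0.34 with SAHA (-0.34 ± 0.08, edgeR adjusted p = 0.00186) and by 0.38 with both drugs (-0.38 ± 0.08, or -0.62 with the GC correction). Its DMSO libraries lay at 65.8 to 69.2 CPM and no treated library was above 55.4. PFKFB2 passed only with both drugs, at 0.34 ± 0.11 (edgeR adjusted p = 0.00908), or 0.51 with the GC correction, which also brought BEZ-235 past the threshold (-0.26 from -0.20, edgeR adjusted p = 0.0178). The both-drug call was lost without DMSO replicate 1, DMSO replicate 2 or both-drug replicate 2 (0.27, 0.26 and 0.27, edgeR adjusted p = 0.0646, 0.0639 and 0.0655), and PFKFB2 lies across YOD1 on the other strand, at 36.0 CPM.

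From aldolase to phosphoglycerate mutase, 5 of 7 genes fell with BEZ-235 and 1, GAPDH, rose. Of all genes tested, 25.4% were called lower and 25.5% higher with BEZ-235. PGAM1, phosphoglycerate mutase (chr10:97426160-97433441), was at 341, 388 and 316 CPM with DMSO, 192, 185 and 175 with BEZ-235, 328, 384 and 396 with SAHA and 233, 202 and 215 with both drugs. The libraries with BEZ-235 lay below all others, and SAHA overlapped DMSO. PGAM1 fell by 0.92 with BEZ-235 (-0.92 ± 0.09, edgeR adjusted p = 6.33e-07) and by 0.68 with both drugs (-0.68 ± 0.09, edgeR adjusted p = 8.07e-06).

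TPI1, which interconverts the triose phosphates, showed the same order of groups at 508 to 633 CPM with DMSO, 296 to 326 with BEZ-235, 535 to 615 with SAHA and 360 to 423 with both drugs. Its changes were -0.85 ± 0.09 with BEZ-235 (edgeR adjusted p = 1.39e-06) and -0.52 ± 0.09 with both drugs, or -0.79 with the GC correction. With SAHA TPI1 gave 0.06 (95% interval -0.15 to 0.27) and PGAM1 0.08 (95% interval -0.13 to 0.30).

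GAPDH, the dehydrogenase of the pathway and a gene often used as a reference (chr12:6533927-6538374), went the other way. It was at 2336, 2639 and 2165 CPM with DMSO, 3159, 3136 and 2868 with BEZ-235, 1961, 2190 and 2229 with SAHA and 3365, 2959 and 3218 with both drugs. All 6 libraries with BEZ-235 lay above all 6 without it. The rise was 0.36 ± 0.09 with BEZ-235 (edgeR adjusted p = 0.0035) and 0.42 ± 0.09 with both drugs (edgeR adjusted p = 0.00073), which the GC correction took to 0.11 (edgeR adjusted p = 0.293).

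PGK1, which makes the first ATP of the pathway (chrX:77910739-78129296), was at 380, 397 and 373 CPM with DMSO, 245, 264 and 251 with BEZ-235, 420, 465 and 470 with SAHA and 352, 299 and 336 with both drugs. The 4 groups did not overlap: SAHA was highest and BEZ-235 lowest. BEZ-235 gave -0.60 ± 0.08 (edgeR adjusted p = 1.04e-05) and SAHA 0.24 ± 0.08 (edgeR adjusted p = 0.023). The SAHA rise no longer passed when DMSO replicate 1 or 3 or SAHA replicate 2 or 3 was left out (0.20 to 0.23, edgeR adjusted p 0.0756 to 0.0894) or with the GC correction (0.17, edgeR adjusted p = 0.0644). The value for both drugs, -0.22 ± 0.08, was lost without both-drug replicate 2 (-0.18, edgeR adjusted p = 0.0716) and was 0.00 with the GC correction.

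BPGM, which makes 2,3-bisphosphoglycerate, fell to 10.1 to 11.7 CPM with BEZ-235 and rose to 26.9 to 33.1 with SAHA, from 17.3 to 20.5 with DMSO. These were -0.76 ± 0.12 (edgeR adjusted p = 5.41e-05) and 0.73 ± 0.11 (edgeR adjusted p = 6.37e-05). With both drugs it was at 17.0 to 21.2 CPM, overlapping DMSO, at 0.07 ± 0.11, or 0.29 with the GC correction (edgeR adjusted p = 0.015).

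The aldolases, which split fructose 1,6-bisphosphate, differed between isoforms. ALDOC, the brain isoform (chr17:28573115-28577264), was at 48.9, 48.3 and 43.6 CPM with DMSO, 29.5, 29.9 and 29 with BEZ-235, 63.0, 58.9 and 59.3 with SAHA and 72.1, 67.2 and 70.6 with both drugs. No groups overlapped. The changes were -0.67 ± 0.08 with BEZ-235 (edgeR adjusted p = 2.03e-06), 0.36 ± 0.07 with SAHA (edgeR adjusted p = 0.000783) and 0.58 ± 0.07 with both drugs (edgeR adjusted p = 3.77e-06), or 0.32 with the GC correction.

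ALDOA, the widespread isoform (chr16:30064164-30070457), was at 399, 442 and 370 CPM with DMSO, 413, 400 and 339 with BEZ-235, 287, 302 and 310 with SAHA and 469, 491 and 562 with both drugs. BEZ-235 overlapped DMSO, SAHA lay below and both drugs above. SAHA gave -0.43 ± 0.10 (edgeR adjusted p = 0.00163) and both drugs 0.33 ± 0.10 (edgeR adjusted p = 0.00601). The second call was lost without DMSO replicate 3 (0.24, edgeR adjusted p = 0.0573) and with the GC correction (0.15, edgeR adjusted p = 0.0923).

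At enolase and pyruvate kinase, BEZ-235 lowered 3 of 4 genes and SAHA raised 2. Over all genes tested, 25.4% were called lower with BEZ-235 and 22.2% higher with SAHA. PKM, pyruvate kinase (chr15:72199029-72231822), was at 990, 1076 and 983 CPM with DMSO, 529, 510 and 494 with BEZ-235, 1060, 1026 and 988 with SAHA and 622, 564 and 643 with both drugs. SAHA and DMSO overlapped, and all libraries with BEZ-235 lay far below them. The change was -0.99 ± 0.08, or 1.99-fold lower, with BEZ-235 (edgeR adjusted p = 2.3e-08) and -0.74 ± 0.08 with both drugs (edgeR adjusted p = 3.35e-07), while SAHA gave 0.01 with a 95% interval of -0.16 to 0.19. The table counts genes, so the PKM1 and PKM2 isoforms are not told apart here.

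ENO2, the enolase of neurons and a serum marker of neuroblastoma (chr12:6913745-6923698), was at 220, 215 and 203 CPM with DMSO, 208, 191 and 195 with BEZ-235, 338, 350 and 336 with SAHA and 314, 305 and 316 with both drugs. Every library with SAHA lay above every library without it. It rose by 0.68 ± 0.07 with SAHA (edgeR adjusted p = 8.72e-07) and by 0.55 ± 0.07 with both drugs (edgeR adjusted p = 2.64e-06), or 0.35 with the GC correction, while BEZ-235 gave -0.10 with a 95% interval of -0.26 to 0.06.

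ENO1, the enolase of most cells, was at 595 to 689 CPM with DMSO and 470 to 530 with BEZ-235, -0.36 ± 0.08 (edgeR adjusted p = 0.00168), and did not pass with SAHA (0.05) or both drugs (0.05, or -0.09 with the GC correction). ENO3, the muscle enolase, was at 51.6 to 58.7 CPM with DMSO, 25.2 to 32.1 with BEZ-235, 77.6 to 92.5 with SAHA and 44.4 to 51.0 with both drugs, without overlap between groups. Its changes were -0.98 ± 0.10 with BEZ-235 (edgeR adjusted p = 1.02e-06), 0.60 ± 0.10 with SAHA (edgeR adjusted p = 0.000148) and -0.22 ± 0.10 with both drugs, which passed only with the GC correction (-0.50, edgeR adjusted p = 4.17e-05). ENO3 lies across PFN1 on the other strand, which was at 527% of its level, and whether the authors' counting used strand is not given in the sources used here. ENO2 went from 27.3% ± 1.44 of enolase message per kilobase with DMSO to 31.7% ± 0.670 with BEZ-235, 35.7% ± 0.316 with SAHA and 35.1% ± 0.869 with both drugs (SD, n = 3).

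The lactate dehydrogenases shifted from LDHA towards LDHB under BEZ-235. LDHA, whose subunits favour lactate production (chr11:18394388-18408425), was at 678, 777 and 673 CPM with DMSO, 422, 393 and 408 with BEZ-235, 509, 547 and 565 with SAHA and 307, 260 and 263 with both drugs. No groups overlapped, and the order from high to low was DMSO, SAHA, BEZ-235 and both drugs. The changes were -0.80 ± 0.09 with BEZ-235 (edgeR adjusted p = 1.06e-06), -0.39 ± 0.09 with SAHA (edgeR adjusted p = 0.0014) and -1.36 ± 0.09, or 2.56-fold lower, with both drugs (edgeR adjusted p = 1.07e-09). Both drugs also lay below BEZ-235 alone by 0.56 (-0.56 ± 0.09, edgeR adjusted p = 3.67e-05), or -0.37 with the GC correction, and below SAHA alone by 0.97 (-0.97 ± 0.09, edgeR adjusted p = 1.15e-07). The interaction, -0.17 ± 0.12, did not pass (edgeR adjusted p = 0.294, 95% interval -0.45 to 0.11), and was 0.08 with the GC correction.

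LDHB, whose subunits favour the use of lactate (chr12:21635342-21757857), was at 880, 1013 and 846 CPM with DMSO, 1225, 1204 and 1175 with BEZ-235, 761, 851 and 876 with SAHA and 1271, 914 and 1090 with both drugs. BEZ-235 lay above DMSO without overlap, while SAHA and both drugs overlapped it. BEZ-235 gave 0.40 ± 0.11 (edgeR adjusted p = 0.00544) and both drugs 0.26 ± 0.11 (edgeR adjusted p = 0.0439). The second call was lost in 10 of the 12 fits without 1 library, at edgeR adjusted p of 0.0509 to 0.308, both-drug replicate 1 costing it the most (0.12).

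The share of LDHA in lactate dehydrogenase message per kilobase was 27.2% ± 0.381 with DMSO, 14.0% ± 0.400 with BEZ-235, 23.9% ± 0.401 with SAHA and 10.9% ± 0.950 with both drugs (SD, n = 3). By library it was 27.0, 26.9 and 27.6%, then 14.2, 13.6 and 14.3%, then 24.3, 23.6 and 23.7%, then 10.4, 12 and 10.4%. The 4 groups did not overlap. The size of the share depends on exon length, 6.21 kb for LDHA and 2.983 kb for LDHB.

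**Figure D3:**
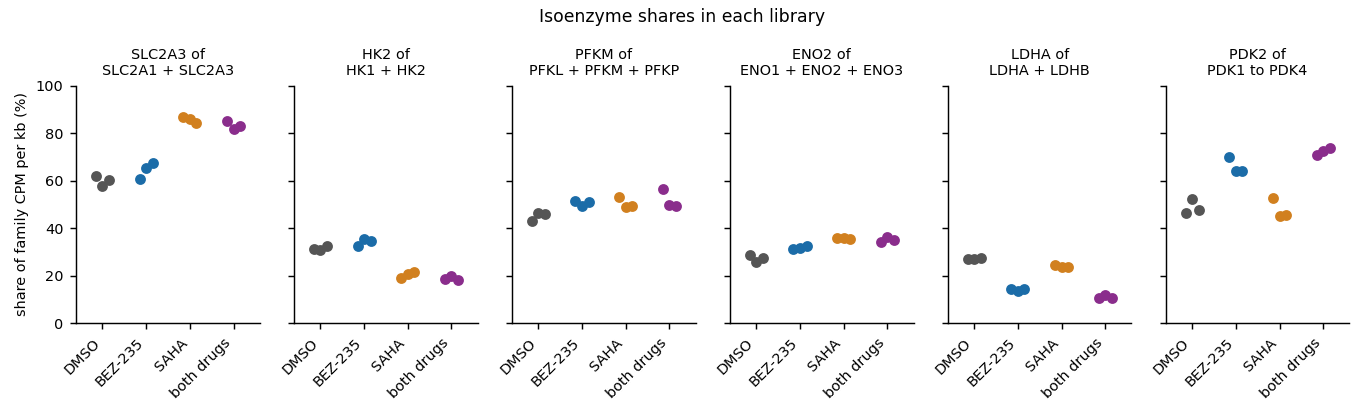
Share of 1 isoenzyme in the summed CPM per kb of its family (vertical axis, %), 1 point per library, by group. LDHA goes from 26.9 to 27.6% with DMSO to 10.4 to 12% with both drugs, SLC2A3 and HK2 shift in the libraries with SAHA, and PDK2 shifts in those with BEZ-235.

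SLC16A1, which carries lactate and pyruvate in either direction (chr1:112911847-112957013), was at 175, 192 and 209 CPM with DMSO, 174, 179 and 183 with BEZ-235, 172, 167 and 177 with SAHA and 131, 110 and 105 with both drugs. Only the both-drug libraries lay below DMSO. They gave -0.73 ± 0.09 (edgeR adjusted p = 1.84e-06), against -0.10 with BEZ-235 (95% interval -0.31 to 0.10) and -0.16 with SAHA (95% interval -0.36 to 0.04). With the GC correction SAHA passed at -0.21 (edgeR adjusted p = 0.00845).

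SLC16A3, an exporter known to be raised by hypoxia, was at 1.47 to 2.25 CPM with DMSO and 3.03 to 5.14 with both drugs, 1.08 ± 0.26 (edgeR adjusted p = 0.00147), or 0.63 with the GC correction. Neither drug alone passed: BEZ-235 gave -0.65 ± 0.28 and SAHA 0.61 ± 0.25, which passed with the GC correction (0.80, edgeR adjusted p = 0.00727). SLC16A3 had only 19.6 to 215 counts per library and lies across CSNK1D on the other strand, at 243 CPM. SLC16A1 made at least 97.2% of the message of this pair per kilobase in every library.

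At the pyruvate gate, the 3 measured kinases went different ways. PDK2 (chr17:50094737-50112152) was at 14.6, 16.8 and 14.4 CPM with DMSO, 20.3, 21.3 and 19.4 with BEZ-235, 21.4, 19.6 and 19.7 with SAHA and 30.4, 30.0 and 29.7 with both drugs. The drugs alone overlapped each other above DMSO, and both drugs lay above all. PDK2 lies across SAMD14 on the other strand, which was at 38.9% of its level. The rises were 0.41 ± 0.09 (edgeR adjusted p = 0.00156), 0.40 ± 0.09 (edgeR adjusted p = 0.00203) and 0.97 ± 0.09 (edgeR adjusted p = 1.09e-07), the last 0.64 with the GC correction.

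PDK3, the kinase least open to inhibition by pyruvate (chrX:24465221-24541862), was at 4.54, 4.85 and 4.58 CPM with DMSO, 2.09, 2.57 and 2.15 with BEZ-235, 6.79, 8.03 and 7.07 with SAHA and 3.24, 2.98 and 3.00 with both drugs. No groups overlapped, with SAHA highest and BEZ-235 lowest, at 39.0 to 639 counts per library. The changes were -1.04 ± 0.15 (edgeR adjusted p = 3.56e-05), 0.65 ± 0.14 (edgeR adjusted p = 0.00115) and -0.60 ± 0.15 (edgeR adjusted p = 0.0023), the last -0.38 with the GC correction.

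PDK1, a kinase known to be raised by hypoxia, was at 27.5 to 31.8 CPM with DMSO, 17.2 to 24.9 with BEZ-235, 32 to 42.2 with SAHA and 19.5 to 24.2 with both drugs. Its BEZ-235 value, -0.45 ± 0.14 (edgeR adjusted p = 0.0116), was lost without BEZ-235 replicate 1 (-0.32, edgeR adjusted p = 0.0528) or DMSO replicate 1 (-0.40, edgeR adjusted p = 0.0514). The SAHA value, 0.38 ± 0.13 (edgeR adjusted p = 0.0275), was lost without DMSO replicate 2 or 3 or SAHA replicate 2 or 3 (0.30 to 0.37, edgeR adjusted p 0.0718 to 0.111) and with the GC correction (0.21, edgeR adjusted p = 0.137). With both drugs PDK1 was at -0.43 ± 0.14 (edgeR adjusted p = 0.0106), or -0.07 with the GC correction (edgeR adjusted p = 0.605). PDK2 went from 48.8% ± 2.90 of kinase message per kilobase with DMSO to 66.1% ± 3.50 with BEZ-235, 47.8% ± 4.17 with SAHA and 72.4% ± 1.53 with both drugs, and PDK3 from 16.5% ± 0.378 to 8.14% ± 0.333, 19.0% ± 1.28 and 8.20% ± 0.210 (SD, n = 3). The size of these shares depends on exon length, 14.883 kb for PDK1 and 5.481 kb for PDK2. In mean CPM with DMSO, PDK1 was at 29.5 and PDK2 at 15.3. Nor are the shares corrected for GC content, which was 39.8% for PDK1 and 59.8% for PDK2.

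Both subunits of pyruvate dehydrogenase were measured. PDHB, the beta subunit of its first enzyme, was at 93.8 to 117 CPM with DMSO, 78.1 to 80.7 with BEZ-235 and 65.2 to 78.4 with both drugs, -0.39 ± 0.09 (edgeR adjusted p = 0.00274) and -0.58 ± 0.10 (edgeR adjusted p = 5.8e-05). With SAHA it did not pass (-0.19), except with the GC correction (-0.25, edgeR adjusted p = 0.0215). PDHA1, the alpha subunit that the kinases phosphorylate, passed only with both drugs, at 0.24 ± 0.07 (edgeR adjusted p = 0.0073), a call lost without DMSO replicate 3 (0.17, edgeR adjusted p = 0.0731).

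Set directly against each other, the 2 drugs differed on most of these genes. Against SAHA, BEZ-235 left 17 of the 32 lower and 8 higher (25 called, 78.1%, against 59.7% of all genes, 30% lower and 29.8% higher). The lowest were PDK3 at -1.69 ± 0.15 (edgeR adjusted p = 6.39e-08), ENO3 at -1.58 ± 0.10 (edgeR adjusted p = 1.91e-09) and BPGM at -1.49 ± 0.12 (edgeR adjusted p = 1.41e-08), and the highest SLC2A1 at 0.94 ± 0.14 (edgeR adjusted p = 1.95e-05), PFKP at 0.83 ± 0.09 and PFKM at 0.80 ± 0.08. PDK2 did not differ beyond its error, at 0.01 with a 95% interval of -0.20 to 0.22. GPI, called at 0.18 (edgeR adjusted p = 0.0436), lost its call in each of the 12 fits without 1 library (0.10 to 0.20, edgeR adjusted p 0.0527 to 0.252). With the GC correction the counts were again 17 lower and 8 higher, where 64.6% of all genes were called, 31.7% lower and 32.9% higher.

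The BEZ-235 effect was measured in separate libraries without SAHA (against DMSO) and with it (both drugs against SAHA). Both drugs against SAHA gave 10 higher and 11 lower (21 called, 65.6%, against 58.8% of all genes, 29.9% higher and 28.9% lower), and with the GC correction 7 and 12, against 52.3% of all genes, 28.4% higher and 23.9% lower. In the 2 comparisons 17 genes were called in common, 15 of them in the same direction, 5 higher and 10 lower, out of 23 called without and 21 called with SAHA. That is 53.1% of the 32 called in both and 88.2% of those in the same direction, beside 34.2% and 85.7% over all genes tested. PFKM, PFKP, GAPDH, LDHB and PDK2 were higher in both, and TPI1, PGK1, BPGM, PGAM1, ENO3, PKM, LDHA, PDHB, PDK1 and PDK3 lower in both. Of these, GAPDH, PGK1, PDHB, PDK1 and PDK2 lost the call with SAHA present under the GC correction (edgeR adjusted p = 0.0863, 0.0627, 0.0873, 0.0504 and 0.216). PFKL and ALDOC were called in opposite directions, and both calls with SAHA present ended under the GC correction (-0.03 and -0.08). The ALDOC call, 0.21 ± 0.07, was also lost without SAHA replicate 2 or 3 or both-drug replicate 1 or 3 (edgeR adjusted p 0.0609 to 0.0806), and the PDHA1 call, 0.18 ± 0.07, in 11 of the 12 fits without 1 library (0.11 to 0.18, edgeR adjusted p up to 0.221). LDHB, at 0.40 ± 0.11 with SAHA present, was at 0.25 without both-drug replicate 1.

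**Figure D4:**
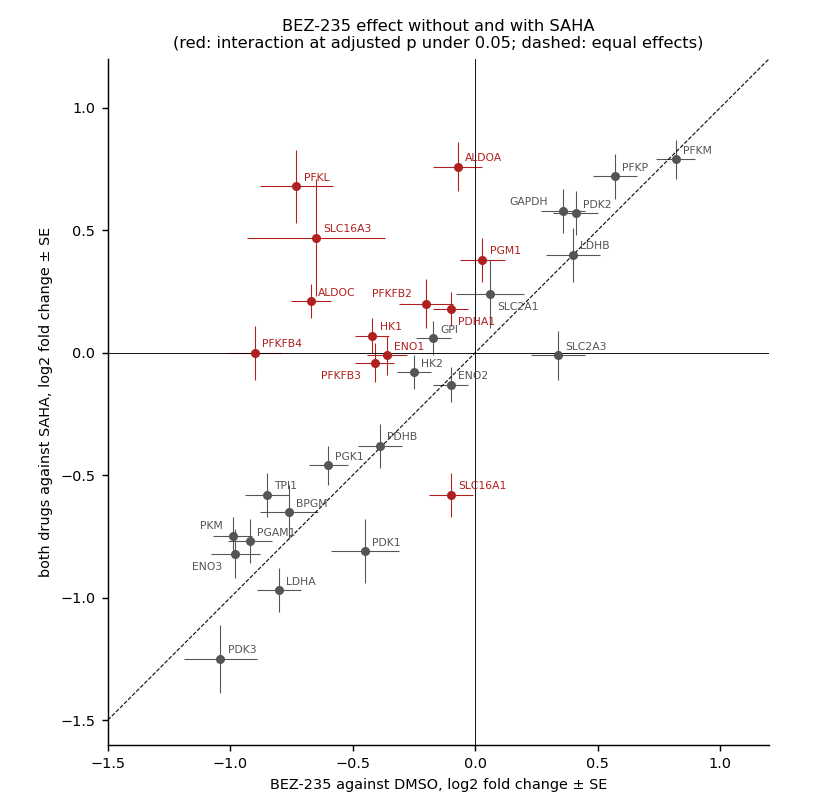
BEZ-235 effect without SAHA (horizontal axis) against the effect with SAHA (vertical axis), log2 fold change ± SE, for 32 genes in separate libraries; the dashed line marks equal effects, and red marks an interaction at adjusted p under 0.05. Of 17 genes called in both, 15 have the same sign on both axes, 5 above 0 and 10 below, and PFKL and ALDOC do not.

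The SAHA effect was likewise read without BEZ-235 (against DMSO) and with it (both drugs against BEZ-235). Against BEZ-235 alone, both drugs left 20 genes higher and 4 lower (24 called, 75.0%, against 58% of all genes, of which 29.5% were higher and 28.5% lower), at a median of 0.34 beside 0.01. With the GC correction the counts were 15 and 8, where 55.9% of all genes were called, 28.9% higher and 27.1% lower. Called in both comparisons were 13 genes, 11 in the same direction, of 17 called without and 24 called with BEZ-235. These are 40.6% called in both and 84.6% of them in the same direction, beside 29.5% and 85.8% over all genes tested. SLC2A3, ALDOC, PGK1, BPGM, ENO2, ENO3, PDK2 and PDK3 were higher in both, and SLC2A1, HK2 and LDHA lower in both. PFKL and ALDOA were opposite, and their calls with BEZ-235 present ended under the GC correction (-0.00 and 0.18), as did those of PDK2 (0.12), TPI1 (0.00), PKM (0.08) and PGAM1 (0.09). PDK3 was at 0.44 against BEZ-235 alone, or 0.68 with the GC correction (edgeR adjusted p = 0.00129). In the main fit its call was lost without BEZ-235 replicate 1 or 3 or both-drug replicate 1 (0.38 to 0.40, edgeR adjusted p 0.0678 to 0.0909). PGAM1 (0.24) lost its call against BEZ-235 alone without DMSO replicate 1, any BEZ-235 replicate, SAHA replicate 2 or both-drug replicate 1 or 3 (0.18 to 0.26, edgeR adjusted p 0.0516 to 0.143).

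The interaction, the SAHA effect with BEZ-235 minus that without it, passed for 12 of the 32 genes, 11 higher and 1 lower (37.5%, against 38.4% of all genes, 18.9% higher and 19.6% lower). With the GC correction 9 were higher and 2 lower, against 19% of all genes, 10.4% higher and 8.57% lower. PFKL was highest among called genes at 1.42 ± 0.21 (edgeR adjusted p = 0.000255), or 0.54 with the GC correction (edgeR adjusted p = 0.00732). SLC16A3 followed at 1.12 ± 0.37 (edgeR adjusted p = 0.0258), which the correction took to 0.34 (edgeR adjusted p = 0.521). Next were PFKFB4 at 0.91 ± 0.15, ALDOC at 0.88 ± 0.11 and ALDOA at 0.83 ± 0.13, which the GC correction put at 0.55, 0.53 and 0.62, all still called. SLC16A1 was the gene below 0, at -0.47 ± 0.12 (edgeR adjusted p = 0.007), or -0.19 with the correction (edgeR adjusted p = 0.142). The calls of PGM1, PFKFB2, PFKFB3, ENO1, SLC16A3 and PDHA1 were lost in fits without 1 library, at edgeR adjusted p up to 0.111, 0.134, 0.0535, 0.0762, 0.0905 and 0.0963. Over all genes the median interaction ran from -0.55 in the lowest of the 5 groups by GC content to 0.71 in the highest.

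**Figure D5:**
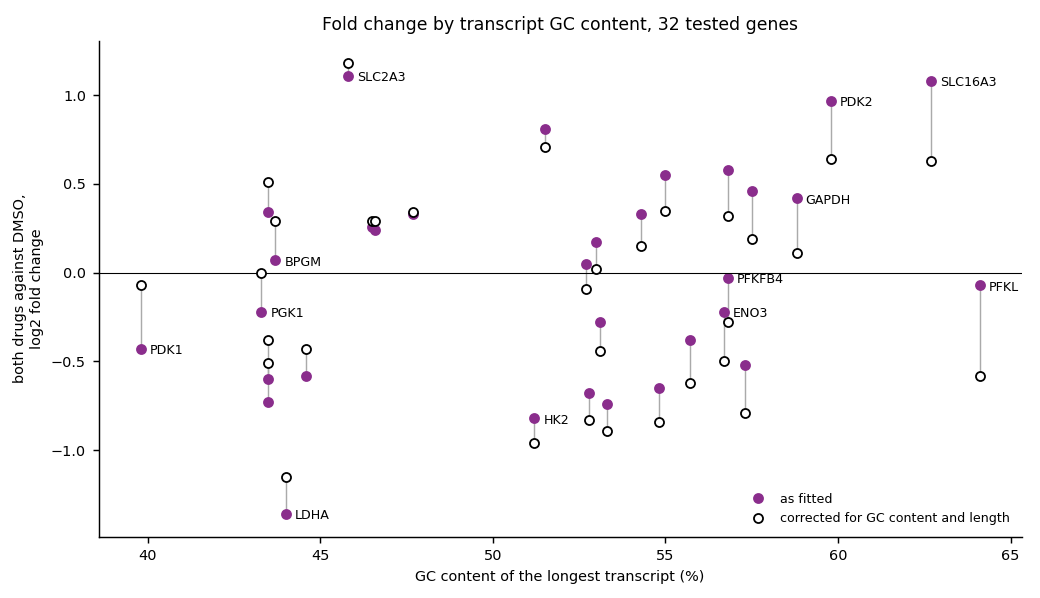
Log2 fold change of both drugs against DMSO (vertical axis) by GC content of the longest transcript (horizontal axis, %) for 32 genes; filled points are the main fit, open points the fit corrected for GC content and length. The correction lowers genes of high GC content, PFKL from -0.07 to -0.58, and raises those of low GC content, PDK1 from -0.43 to -0.07, while LDHA stays lowest at -1.36 and -1.15.

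Neighbouring routes were read from lists that hold none of the 33 genes, with calls and fold changes against DMSO from the same edgeR fit. The median log2 fold change of all genes was 0.02 with BEZ-235, -0.01 with SAHA and 0.03 with both drugs. Over all genes tested, 25.5% were called higher and 25.4% lower with BEZ-235, 22.2% and 20.9% with SAHA, and 33.2% and 31.2% with both drugs. The counts of every list that follows are to be read beside these shares. Among 19 other glycolytic isoenzymes and sugar or monocarboxylate transporters tested, 5 were higher and 9 lower with BEZ-235, 7 and 7 with SAHA, and 6 and 9 with both drugs, at medians of -0.21, -0.07 and 0.08. SLC2A12, a further glucose transporter, rose with all, by 1.95 ± 0.16, 2.54 ± 0.15 and 3.06 ± 0.15, and SLC2A4, the insulin-responsive transporter, by 3.02 ± 0.24 with both drugs. TIGAR, which removes fructose 2,6-bisphosphate, fell by 1.84 (-1.84 ± 0.15) with both drugs. Its mean level was much the same with BEZ-235 alone: 25.6 CPM with DMSO, 7.22 with BEZ-235, 23.1 with SAHA and 7.19 with both drugs.

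Of 12 pentose phosphate genes, 3 were higher and 5 lower with BEZ-235, 1 and 3 with SAHA, and 4 and 5 with both drugs (medians -0.23, -0.12 and -0.04), with TKT, transketolase, at 1.33 ± 0.09 with both. In the same order, of 13 genes of gluconeogenesis and the glycerol branch 1 was higher and 6 lower, 2 and 2, and 1 and 5 (medians -0.36, 0.02 and -0.17), and G6PC3, a glucose 6-phosphatase, was at -1.40 ± 0.08, -0.59 ± 0.08 and -1.5 ± 0.09. Of 17 glycogen genes 6 were higher and 3 lower, 6 and 5, and 8 and 5 (medians 0.04, 0.10 and 0.35), GBE1, the branching enzyme, being at -1.93 ± 0.12 with both drugs and PYGM, muscle phosphorylase, at 1.54 ± 0.11 with BEZ-235.

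Of 12 further genes of pyruvate entry and the pyruvate dehydrogenase complex, 5 were higher and 4 lower with BEZ-235, 2 and 4 with SAHA, and 3 and 5 with both drugs (medians 0.17, -0.08 and -0.19). DLD, the last enzyme of the complex, was at -0.80 ± 0.10 with both drugs, or -0.29 with the GC correction. PDP1, a phosphatase that reverses the kinases, rose by 0.62 ± 0.09 with SAHA, and PDP2, its relative, by 0.58 ± 0.09 with BEZ-235. The PDP1 rise was not particular to SAHA: its means were 52.3 CPM with DMSO, 74.3 with BEZ-235, 80.1 with SAHA and 64.5 with both drugs. PDP2 means were 43.7, 65.3, 41.0 and 59.4 CPM in the same order. Of 22 citrate cycle genes 5 were higher and 7 lower, 2 and 7, and 7 and 9 (medians -0.07, -0.06 and -0.16), with IDH2, a mitochondrial isocitrate dehydrogenase, at -1.19 ± 0.11, -0.82 ± 0.10 and -1.67 ± 0.11.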

How the data were processed

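Polyadenylated RNA of 12 NB-1 cultures was aligned by the authors with STAR to hg38 and counted per gene with RSEM, per the submitters' processing notes. Neither the versions nor the gene annotation is given in the sources used here. Its values, as deposited, are expected counts without scaling for depth or length, and they were rounded. Names, coordinates, exon length and GC content (of the longest transcript) came from GENCODE release 29, which held 57447 of the 58051 identifiers.

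The 12 libraries entered a single model of 4 group means, which leaves 8 residual degrees of freedom, fitted by edgeR 4.0.16 (R 4.3.3) with TMM scaling, filterByExpr and the robust quasi-likelihood test, 2-sided, checked on simulated data. P-values were adjusted by Benjamini-Hochberg over all 17774 genes tested, and calls use 0.05. The interaction is the difference of differences on the log2 scale. CPM are counts scaled to library totals with the TMM factors. The coefficient of variation between replicates was 10.6%, so for most of these genes replicate spread rather than depth limits precision.

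The alternatives were RLE scaling, DESeq2 1.42.0, no filter, a mean CPM of at least 1, unrounded values, only the groups compared, the replicate block, a GC and length correction (a spline of 5 degrees of freedom per library), both of these together, pseudogenes summed and each library left out. All 33 genes were named, and in each neighbouring list the 2 called genes of smallest p in each direction were eligible. The 33 genes, the lists and the alternatives were chosen with earlier results of these data known.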

Additional observations from a re-analysis of the deposited data

Results flagged for a closer look

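For 12 of the 32 tested genes the SAHA effect differed between cells with and without BEZ-235, by edgeR's test of the interaction at an adjusted p under 0.05. That is 37.5% of them, beside 38.4% of all genes tested, so the count is near the background. PFKL differed by 1.42 on the log2 scale, SLC16A3 by 1.12, PFKFB4 by 0.91, ALDOC by 0.88 and ALDOA by 0.83. HK1 differed by 0.49, PFKFB2 by 0.41, PFKFB3 by 0.36, PGM1 by 0.35, ENO1 by 0.35 and PDHA1 by 0.28. In SLC16A1 the difference was -0.47.

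PFKFB3 lost the call without BEZ-235 replicate 2 (0.29, edgeR adjusted p = 0.0535), ENO1 without both-drug replicate 3, SAHA replicate 1, DMSO replicate 2 or BEZ-235 replicate 2 or 3 (0.27 to 0.33), and SLC16A3 without both-drug replicate 3, SAHA replicate 1 or 2, DMSO replicate 1 or BEZ-235 replicate 1 or 3 (0.82 to 1.11). PGM1 was lost in 9 of 12 fits without 1 library (0.27 to 0.35), PFKFB2 in 8 (0.28 to 0.44) and PDHA1 in 9 (0.23 to 0.29).

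With the GC and length correction 8 of these were still called: PFKL at 0.54, PFKFB2 at 0.74, ALDOA at 0.62, PFKFB4 at 0.55, ALDOC at 0.53, PGM1 at 0.41, PDHA1 at 0.39 and HK1 at 0.35. The other 4 were not, at 0.34 for SLC16A3, 0.22 for ENO1, 0.09 for PFKFB3 and -0.19 for SLC16A1. PGK1 passed only with the correction, at 0.45 (edgeR adjusted p = 0.00561), as did ENO2 at -0.28 and PDK2 at -0.40.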

How the results depend on the processing

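Of 224 values (32 genes in 7 comparisons), 217 kept direction and call under RLE scaling, 216 with DESeq2, 224 unrounded, 223 with pseudogenes summed, 217 with the stricter filter, 196 without a filter and 181 of 192 with only the groups compared. With the GC and length correction 161 did, 18 gained and 20 lost the call, and 8 turned. Those 8, with the same values when the replicate block was added, were PGK1 for both drugs against DMSO (0.00), PFKL (-0.00), PFKFB3 (-0.24) and GAPDH (-0.34) for both drugs against BEZ-235, PFKL (-0.03), PFKFB4 (-0.30) and ALDOC (-0.08) for both drugs against SAHA, and PDK2 for the interaction (-0.40). The correction raised genes called lower for both drugs against BEZ-235 from 4 to 8 and for the interaction from 1 to 2, and so did the block with the correction. Without a filter the interaction had 6 genes higher and 2 lower; the cause was not tested. Leaving out 1 library gave 6 to 10 higher and 1 to 2 lower for the interaction, and turned no called value in 2688. The replicate block kept 215 values, and the interaction had 8 higher and 1 lower with it. Replicate numbers did not pair the samples: of 18 same-numbered pairs 1 correlated over 0.1 (r -0.164 to 0.128), and 1 of 12 libraries correlated best with its own number. Depth limits SLC16A3, at 19.6 to 215 counts, and PDK4, at 0. The next lowest were PDK3, at 39.0 to 639 counts, and SLC2A1, at 78.3 to 304, where counting error also weighs.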

Other observations

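Lists of factors known to act on these genes were read in the same way, in the same edgeR fit. The shares of all genes tested were again 25.5% higher and 25.4% lower with BEZ-235. They were 22.2% and 20.9% with SAHA, and 33.2% and 31.2% with both drugs. Among 11 hypoxia factors and their regulators 5 were higher and 3 lower with BEZ-235, 4 and 1 with SAHA, and 5 and 2 with both drugs (median log2 fold changes 0.17, -0.04 and 0.18), and EPAS1, a hypoxia-inducible factor, rose by 2.31 ± 0.19, 2.01 ± 0.19 and 3.26 ± 0.18 on the log2 scale from a DMSO level of 0.88 CPM. Of 23 hypoxia target genes outside glycolysis 8 were higher and 6 lower, 11 and 3, and 14 and 5 in the same order (medians -0.00, 0.25 and 0.40), NDRG1 being at 3.30 ± 0.15 with both drugs and DDIT4, a brake on mTOR, at -2.17 ± 0.12, -0.68 ± 0.11 and -1.97 ± 0.12. EGLN3, an oxygen-sensing hydroxylase, is in both lists. Of 19 glucose sensing genes and other regulators 10 were higher and 2 lower, 6 and 6, and 13 and 4 (medians 0.21, -0.11 and 0.27), with PPARGC1A, a coactivator of mitochondrial genes, at 1.36 ± 0.09, 1.11 ± 0.09 and 1.46 ± 0.09 and TXNIP, a brake on glucose uptake, at 1.05 ± 0.08 with SAHA and 1.23 ± 0.08 with both drugs.

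GAPDH is often a denominator in such experiments. Of 13 other common reference genes 1 was higher and 9 lower with BEZ-235, 3 and 3 with SAHA, and 3 and 9 with both drugs (medians -0.46, -0.19 and -0.29). The share of all genes called lower was 25.4% with BEZ-235, 20.9% with SAHA and 31.2% with both drugs. The share called higher was 25.5%, 22.2% and 33.2%. ACTB, cytoskeletal actin, was at -1.56 ± 0.10, -0.43 ± 0.09 and -1.16 ± 0.09. The ratio of GAPDH to ACTB in CPM per kb was 1.23 ± 0.0757 with DMSO, 4.66 ± 0.213 with BEZ-235, 1.48 ± 0.0660 with SAHA and 3.70 ± 0.346 with both drugs (SD, n = 3; exact permutation p = 0.1 each against DMSO, the smallest possible).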
